A study of Saccharomyces cerevisiae with 2 samples.

Results

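The genes of the proteasome were examined in a yeast strain that lacks the histone methyltransferase gene SET2. The set comprised 35 genes, taken by name from the R64 annotation, out of 6002 nuclear protein-coding open reading frames (ORFs). It held 14 genes of the core particle, 19 of the regulatory particle, the assembly factor UMP1 and the transcription factor RPN4. The cells carried delta set2::kanMX4 in the BY4741 background and grew in YPAD medium with 1% glucose to an OD of 1, in mid-log phase. There were 2 biological replicate cultures of this 1 group and no wild type. Transcript isoform sequencing (TIF-Seq) reads both boundaries of each capped, polyadenylated RNA as a pair. A count here is of such paired reads, called molecules, and may include copies made by PCR.

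The authors deposited 1 pooled count for each pair of start and end positions, so no value here has a spread between replicates and no difference could be tested between cultures. The table held 6074514 molecules in 510263 distinct pairs, called isoforms here, and 0 molecules overlapped the SET2 ORF. The proteasome genes took 70180 sense molecules, or 1.16% of the total (95% Wilson interval 1.15% to 1.16%). A further 12 sense molecules reached a member's ORF, PRE9, but overlapped another ORF more. Intervals cover counting error only, because copies made by PCR were not told apart. Only 0.503% of molecules exceeded 2000 nt, so a count is set beside those of ORFs of like length before it is compared.

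The proteasome degrades proteins that carry ubiquitin chains. Its core particle is a barrel of α and β subunit rings, in which the β subunits Pre3, Pup1 and Pre2 cut peptide bonds. The regulatory particle caps the barrel. Its base holds the ring of Rpt ATPases that unfold substrates, the scaffolds Rpn1 and Rpn2 and the ubiquitin receptors Rpn10 and Rpn13, and its lid holds the deubiquitinase Rpn11. Ump1 helps the core particle to assemble. Rpn4 activates proteasome genes by binding the proteasome-associated control element (PACE), and it is itself a short-lived substrate of the proteasome.

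The promoters were read first, because the PACE sequence links most of these genes to RPN4. The exact PACE letters GGTGGCAAA, searched on both strands of the 300 bases before the start codon, were found in 27 of the 35 genes, or 77.1%. By the same rule 1.22% of all ORFs had it, which was 73 of 6002. All 6 RPT genes carried it, as did 6 of 7 α genes, 6 of 7 β genes and 7 of 9 lid genes. It was read on the strand of the gene in 19 genes and on the opposite strand in 8. The sequences below show the R64 genome in the direction of the gene, with the motif in capitals, for 4 genes in the first orientation and 2 in the second.
PUP3 (chrV:349511-349539, minus strand): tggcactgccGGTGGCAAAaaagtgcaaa
PRE2 (chrXVI:732184-732212, plus strand): acagcaaaagGGTGGCAAAacgaagaata
RPT6 (chrVII:411352-411380, minus strand): atgcgagcgaGGTGGCAAAagttgtaata
RPN11 (chrVI:153259-153287, plus strand): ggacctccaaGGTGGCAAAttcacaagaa
RPT4 (chrXV:813802-813830, minus strand): aatagtggaaTTTGCCACCgaagggaaag
RPN12 (chrVI:252398-252426, plus strand): ctacacattaTTTGCCACCcattgaaatt

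The 8 genes without the exact letters were PRE5, PUP1, RPN8, RPN10, RPN13, SEM1, UMP1 and RPN4. Their promoters are shown because 6 of them held 1 of 2 related forms, which were picked out only after these promoters had been read. PRE5, PUP1 and RPN8 shared AGTGGCAAA, which 51 of all ORFs, or 0.850%, also had. RPN10, RPN13 and SEM1 shared GGTGGCGAA, found in 26 ORFs, or 0.433%. UMP1 had neither, and the closest stretch in it is shown.
PRE5 (chrXIII:901552-901580, plus strand): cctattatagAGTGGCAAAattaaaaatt
PUP1 (chrXV:631891-631919, minus strand): aacccggccgAGTGGCAAAataccaaaaa
RPN8 (chrXV:817085-817113, minus strand): gggatacctcAGTGGCAAAtcgttactca
RPN10 (chrVIII:498968-498996, plus strand): caggcgggttTTCGCCACCggaatttaca
RPN13 (chrXII:965656-965684, minus strand): ttattcgcgaGGTGGCGAAagctttgcta
SEM1 (chrIV:1202007-1202035, plus strand): tagtgctatgGGTGGCGAAcgtggtgggc
UMP1 (chrII:582267-582295, minus strand): gtaaccatgcAGTGGCAATtttatcctac

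With the exact form or either related form, 33 of the 35 genes had a match, against 2.5% of all ORFs (150 of 6002). These forms were chosen on the members, so the first number is a description of them. The 5 letters GTGGC, common to all these forms, stood in 34 of the 35 windows and in 23.3% of all ORFs. RPN4 was the gene without them. A match describes the letters only, and binding of Rpn4 was not measured.

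The start sites lay downstream of the motif. A full-ORF molecule is defined as one that covered exactly 1 ORF from start codon to stop codon. In the 26 genes with the exact motif and at least 1 such molecule, the most used start was on the downstream side in all 26. The same was not computed for other ORFs with the motif, so this order is not shown to be particular to these genes. Between the last base of the motif and that start lay a median of 72 nt, with quartiles of 58.8 and 83.5 nt. The distance was shortest in PRE2, at 28 nt, and longest in RPT1, at 123 nt. From the first base of the motif to the start codon there were 84 to 183 nt, with a median of 120 nt. PUP3 had the most distant motif, and its most used start lay 90 nt before the start codon. RPT6 had the nearest, with its most used start 28 nt before the start codon.

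**Figure D1:**
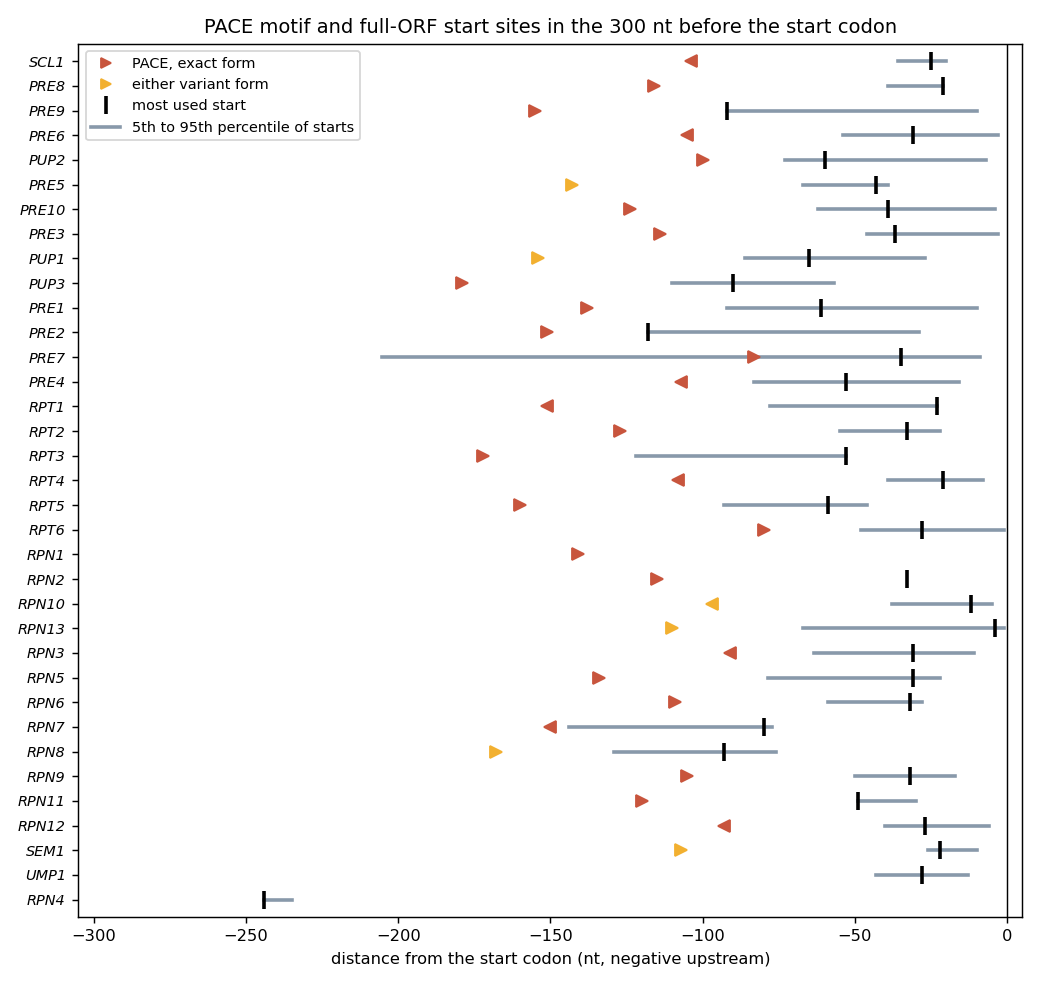
Position of the PACE motif and of full-ORF start sites before the start codon of each of the 35 genes, in nt. Triangles point right where the motif reads on the strand of the gene and left where it reads on the other strand, black ticks mark the most used start, and grey lines span the 5th to 95th percentile of starts. In the 26 genes with an exact motif and a full-ORF start the tick lies to the right of the triangle, by 28 to 123 nt, while the spread of PRE7 starts reaches back past its motif.

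Counts of full-ORF molecules were high for the length of most proteasome genes. The count exceeded the median of the other ORFs within 10% of its length in 32 of the 35 genes, while 46.4% of all 6002 ORFs met this rule. The exceptions were RPN1, RPN3 and RPN4. All 14 core genes and 17 of the 19 regulatory genes were above the median. The 17 included RPN2, which had only 2 full-ORF molecules beside a median of 0. Across the core genes the count was from 1.52 to 39.8 times that median, with a middle value of 9.40 times. No test was made on these counts, since the members were chosen with earlier results known and the table has no replicates.

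Genes of the α ring, which forms the outer gate of the core particle, had from 304 to 7190 full-ORF molecules. PRE5 (YMR314W, chromosome XIII, 901709 to 902413, plus strand) was highest with 7190, beside a median of 180.5 in the 434 ORFs of like length. SCL1 had 5417, PRE6 had 2661, PRE10 had 2386, PUP2 had 2349 and PRE9, whose protein is the core subunit that cells can live without, had 961. PRE8 was lowest with 304, beside 200.5, and 57.8% of the ORFs of like length were below it. The 7 α genes run from 705 to 867 nt, and their like-length medians ran from 113 for PRE10 to 200.5 for PRE8. The order of close counts therefore depends on length: PRE10 had 21.1 times its like-length median and PRE6 14.0 times.

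In the β ring the counts ran from 581 in PRE1 to 3054 in PUP3. The 3 catalytic subunits had 1692 (PUP1), 1658 (PRE3) and 869 (PRE2) full-ORF molecules. PRE3, which has an intron and 2 exons, is measured here over its genomic span of 764 nt. PRE7 had 1160 and PRE4 had 597. The catalytic genes thus lay within the range of the other β genes.

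The regulatory particle genes together had 30168 full-ORF molecules, nearly as many as the 30879 of the core particle genes. Of these, 24260 (80.4%) came from the 3 genes RPN10, SEM1 and RPN13, and 5908 from the other 16. RPN10 (YHR200W, chromosome VIII, 499079 to 499885, plus strand) had 13533, which was 84.1 times the median of ORFs of like length and the highest count of the 35 genes. SEM1, the gene of the smallest lid subunit, had 6121, beside a median of 434 in the 81 ORFs of like length. RPN13 had 4606, beside 216. These 3 genes have the GGTGGCGAA form of the motif, which was picked out from their promoters, and a link to the counts was not tested. Each is shorter than 1000 nt, as are RPN11 with 404 full-ORF molecules and RPN12 with 325.

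Most other regulatory genes are longer than the core genes. The 10 regulatory genes from 1100 to 1500 nt, which are the 6 RPT genes with RPN5, RPN6, RPN7 and RPN9, had from 158 to 1050 full-ORF molecules. The medians of their like-length ORFs lay between 27.5 and 48.5, and each gene stood above 75.9% to 95.9% of those ORFs. RPT4 was highest of the ATPases with 1050, RPT3 had 751, RPT6 had 670, RPT2 had 360, RPT5 had 320 and RPT1 was lowest with 158. In the lid, RPN5 had 919, RPN11 had 404, RPN6 had 389, RPN12 had 325, RPN7 had 242, RPN9 had 170 and RPN8, at 1017 nt, had 134. RPN3, at 1572 nt, had 14, beside a like-length median of 15.

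Where lengths overlap, the particles can be set side by side. From 750 to 900 nt there were 10 core genes with 304 to 5417 full-ORF molecules and 2 regulatory genes, RPN10 with 13533 and RPN12 with 325. RPN12 thus lay near the bottom of the core range and RPN10 above its top. In the longest genes, full-ORF molecules were nearly absent. RPN2 (2838 nt) had 2 and RPN1 (2982 nt) had 0, which at a limit of 3 molecules is no more than 4.94e-05% of the library. The median of ORFs of like length was also 0 for both.

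**Figure D2:**
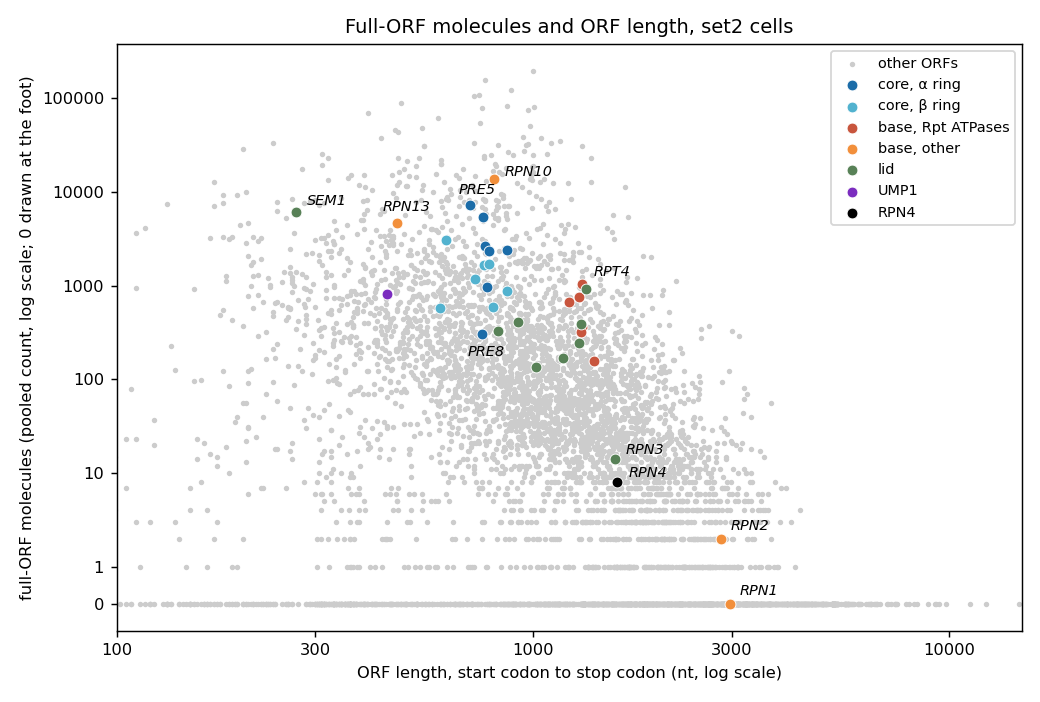
Full-ORF molecules (pooled count, log axis, 0 drawn at the foot) against ORF length in nt (log axis) for all ORFs, with the proteasome genes in colour by group. Grey points fall with length, and 32 of the 35 coloured points lie above the median at their length, RPN10 being highest with 13533 molecules. RPN3 with 14, RPN4 with 8 and RPN1 with 0 do not.

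UMP1 had 810 full-ORF molecules, 3.75 times the like-length median of 216. The regulator RPN4 (YDL020C, chromosome IV, 415113 to 416708, minus strand) was mostly covered in part. It had 175 sense molecules, beside a median of 92 in ORFs of like length, but only 8 of them covered the ORF, beside a like-length median of 15. Of the other 167, 166 started more than 100 nt inside and 1 had both ends inside.

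The 5′ leader, from the start of the molecule to the start codon, had a median length close to that of all ORFs. Among the 31 genes with at least 20 full-ORF molecules, the median over genes was 37 nt (order-statistic interval 28 to 53), beside 40 nt over all 3008 ORFs that met this minimum. The leader was under 30 nt in 10 genes, against 33.2% of those ORFs, and over 60 nt in 8, against 28.7%. Core genes had a median of 45 nt with a range of 21 to 90, and regulatory genes had 33.3 nt with a range of 15 to 95, so the ranges overlapped almost completely. Within the core, α genes ran from 21 nt in PRE8 to 53 nt in PRE9 and β genes ran from 35 nt in PRE7 to 90 nt in PUP3.

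RPN10 had the shortest leader, with a median of 15 nt and its 5th and 95th percentiles at 5 and 38 nt. RPN8 had the longest of the subunit genes, at 95 nt (76 to 129 nt). Among the ATPases RPT4 had 21 nt and RPT3 had 91 nt, and in the lid SEM1 had 22 nt. UMP1 had 28 nt. RPN13, with a median of 26 nt, had its most used start 4 nt before the start codon, with 560 molecules (12.2%). In PRE6 a start at 3 nt took 12.0%, in PRE10 one at 4 nt took 9.89% and in RPT6 one at 1 nt took 8.96%. In RPN12 a start at 6 nt took 20.9%, tied with one at 27 nt, which was taken as its most used start. Another 236 RPN13 molecules, 4.57% of its sense molecules, started 1 to 100 nt inside the ORF, beside 6.65% in PRE8. Over the 35 genes together such starts made up 1.03% of sense molecules, beside 1.52% across all ORFs.

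RPN4 had a far longer leader than any subunit gene. All 8 full-ORF molecules started in a window from 235 to 244 nt before the start codon, with 4 at 244, 2 at 239 and 2 at 235. With 8 molecules RPN4 is below the minimum used for the other genes. The leader of these molecules held no ATG. Of the 190 ORFs with a median leader of at least 200 nt and at least 5 full-ORF molecules, 65 (34.2%) likewise had none. A few molecules on the same strand ended before the RPN4 ORF: 6 ran from 231 to 9 nt before the start codon, 3 from 237 to 29 nt and 6 from 572 to 29 nt. The isoform that began at 237 nt lay within the window of full-ORF starts and was 209 nt long, and the one at 231 nt began just downstream of it and was 223 nt long.

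Upstream ATGs were rare in the leaders of proteasome genes. An ATG stood in the leader of more than 10% of full-ORF molecules in 1 of the 31 genes, against 24.6% of the 3008 ORFs that met the same minimum. The gene was RPT6, with 11.04% of 670 molecules. RPN8 followed with 6.72% of 134 molecules and RPT1 with 3.80% of 158. The median over the 31 genes was 0.104%, beside 0.194% over all ORFs.

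The 3′ UTR, from the stop codon to the end of the molecule, had a median of 96 nt over the 31 genes (interval 73 to 135), beside 116 nt over all ORFs. Taken over pooled molecules, where highly counted genes weigh more, the order turned round, with 120 nt in the 35 genes and 107 nt over all ORFs. Core genes had a median of 111 nt (52 to 158) and regulatory genes 88.5 nt (44 to 207). The longest was in RPN13 at 207 nt, followed by RPN7 at 186 nt and UMP1 at 181 nt. The shortest were in RPN12 at 44 nt, PUP1 at 52 nt, PRE7 at 56 nt and PUP2 at 57 nt. In RPN12 81.5% and in PUP2 83.2% of full-ORF molecules ended before genome with at least 6 A in 10 bases. In PUP1 the value was 22.8% and in PRE7 0.172%. PRE5 had the longest of the core, at 158 nt, and 87.9% of its full-ORF molecules ended before such A-rich genome. PUP3 had the longest of the β genes, at 154 nt, with an A-rich share below that of PUP1. RPN10 had 66 nt. For the ATPases the range was 60 nt in RPT4 to 135 nt in RPT5.

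**Figure D3:**
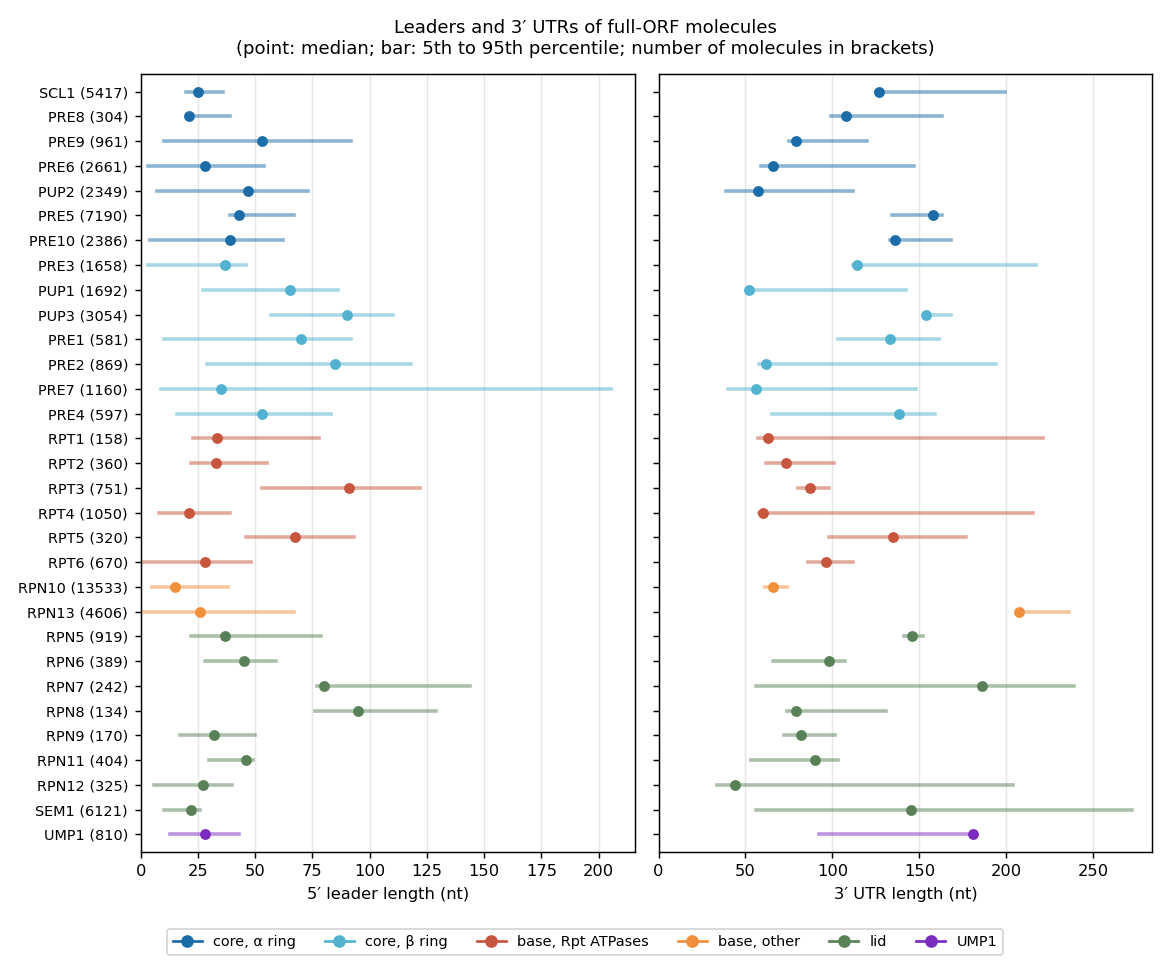
Length in nt of the 5′ leader (left) and the 3′ UTR (right) of full-ORF molecules in the 31 genes with at least 20 of them, with the median as a point and the 5th to 95th percentile as a bar. Median leaders run from 15 nt in RPN10 to 95 nt in RPN8 and median 3′ UTRs from 44 nt in RPN12 to 207 nt in RPN13, and the coloured groups overlap in both.

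Start sites were used with very different focus. The share of full-ORF molecules at the most used start had a median of 31.6% over the 31 genes, all of which had at least 50 such molecules, beside 34.5% over 2376 ORFs. PRE5 was the most focused, with 4722 of its 7190 molecules at 1 position (65.7%, Wilson interval 64.6% to 66.8%), followed by RPT6 at 64.03% (60.3% to 67.6%) and PRE4 at 59.97% (55.98% to 63.8%). RPN13 was the least focused, at 12.2% (11.2% to 13.1%), then PUP2 at 14.8% (13.4% to 16.3%) and RPT4 at 18.5% (16.2% to 20.9%). Among 50 molecules, the expected number of distinct starts was 7.78 in PRE5 and 17.7 in PRE1, with a median of 12.5 over the genes and 10.98 over all ORFs. In the lid the most used start took 49.6% in RPN7 and 20.9% in RPN5, in the β ring PRE1 was lowest at 22.0%, and UMP1 had 42.0%. Core genes had a median top share of 33.8% and regulatory genes 29.0%, and their ranges overlapped.

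The sequences around the most used start are given for the 3 most and the 3 least focused genes and for RPN4. Capitals mark the base just before the start and the first base of the RNA. A pyrimidine followed by a purine, the initiator pair of yeast start sites, stood there in 33 of the 34 genes with a full-ORF molecule, and in 92.1% of all ORFs. RPT4 was the exception.
PRE5 (chrXIII:901656-901676, plus strand): caagagaagTGggtaagaata
RPT6 (chrVII:411304-411324, minus strand): taaacggaaCAacagtatagt
PRE4 (chrVI:249909-249929, minus strand): gaaaggggaTAagcagcagga
RPN13 (chrXII:965554-965574, minus strand): ttaaaagagTGttgatgagta
PUP2 (chrVII:999190-999210, minus strand): agagcgctaTAactatagaat
RPT4 (chrXV:813719-813739, minus strand): acagacgaaGCaaagatatta
RPN4 (chrIV:416942-416962, minus strand): tgagcagccTAacccacacgg

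In some genes the most used starts did not adjoin each other. In PRE9 the most used start lay 92 nt before the start codon with 284 molecules, and the next lay at 26 nt with 115 and at 53 nt with 100. PRE2 had 243 molecules at 118 nt, 135 at 85 nt and 121 at 68 nt. RPT3 had 182 at 53 nt and further starts from 88 to 122 nt, with 96 at 88 nt. SCL1, by contrast, had 86.2% of its molecules within 5 nt of its most used start, although that position alone took 45.6%.

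The most used end took a larger share of molecules than the most used start in 10 of 14 core and 10 of 16 regulatory genes. Over all ORFs with at least 50 full-ORF molecules this held in 54.2%. The most used end took a median of 41.8% of full-ORF molecules over the 31 genes, beside 37.9% over all ORFs, with 49.3% in core and 35.2% in regulatory genes. It was highest in PRE5, at 80.5%, PUP3, at 77.7%, PRE9, at 73.0%, and RPT3, at 71.5%. In PRE5 87.9% and in PRE9 86.2% of full-ORF molecules ended before genome with at least 6 A in 10 bases. Over the 35 genes together the value was 23.5%. In RPT3 it was 2.26%, and in PUP3 it was lower than in RPT3. A link between this share and end focus was not tested. RPN7 had 10.7% and SEM1 13.2%. SEM1 ends were spread over 159 positions, with 809 molecules ending 75 nt and 668 ending 180 nt past the stop codon. In RPN7, 26 molecules ended 83 nt past it, 23 at 57 nt and 22 at 192 nt.

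Internal starts, more than 100 nt inside the ORF in molecules that reached the stop codon, were present in all 35 genes and in 86% of all ORFs. Taken over internal-start and full-ORF molecules together, their share was 9.97% (Wilson interval 9.74% to 10.2%). It was 8.47% (8.18% to 8.78%) in core and 11.1% (10.8% to 11.4%) in regulatory genes. The share over all ORFs was 11.4%, but over ORFs within the length range of the core genes it was 5.91%, below that of the core. These shares are pooled over molecules, so highly counted ORFs weigh more. Per gene the medians were close, at 13.2% in the ORFs of that length range and 12.9% in core genes. RPN10, SEM1 and RPN13 hold 80.4% of the full-ORF molecules behind the regulatory value, and the median share per gene was 33.8% in regulatory and 12.9% in core genes. Length moved with it: in the 20 genes of at most 1000 nt the share per gene ran from 0.423% in SEM1 to 33.8% in RPN12, and in the 15 longer genes from 18.5% in RPN5 to 100% in RPN1. Cells without Set2 are known for cryptic initiation inside genes, but with no wild type the part of SET2 in these starts was not tested.

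Beside ORFs of like length with at least 50 sense molecules, the internal-start share was lower in 21 of the 35 genes and higher in 14. Over all such ORFs it was lower in 47.6%. PRE7 had 1.28% (0.775% to 2.10%), beside a like-length median of 11.8%, and RPN5 had 18.5% (16.3% to 20.8%), beside 55.6%. RPN10 had 1.00%, beside 15.5%. On the other side RPN12 had 33.8% (29.8% to 38.1%), beside 16.7%, and RPN4 had 95.4% (91.2% to 97.7%), beside 73.6%. In the α ring PRE9 had the highest share at 19.4% and SCL1 the lowest at 3.13%. Among the ATPases RPT2 had 55.9% and RPT5 29.7%. PRE3 was highest of the β genes at 17.2% and RPN3 highest of the lid at 77.4%, and UMP1 had 6.47%.

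Internal starts were spread over many positions in the genes with the most of them. The 6848 internal-start molecules fell on 1803 distinct positions. PRE3 had the most used one, 595 nt inside the ORF with 99 of its 344 internal-start molecules. RPT4, with 797 molecules on 197 positions, had at most 41 at any position. In RPN4 the 166 molecules lay on 46 positions, the most used of them 1027 nt inside with 14 molecules. The initiator pair stood at the most used internal start of 7 of the 35 genes, against 38% of the 5161 ORFs with such a start.

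**Figure D4:**
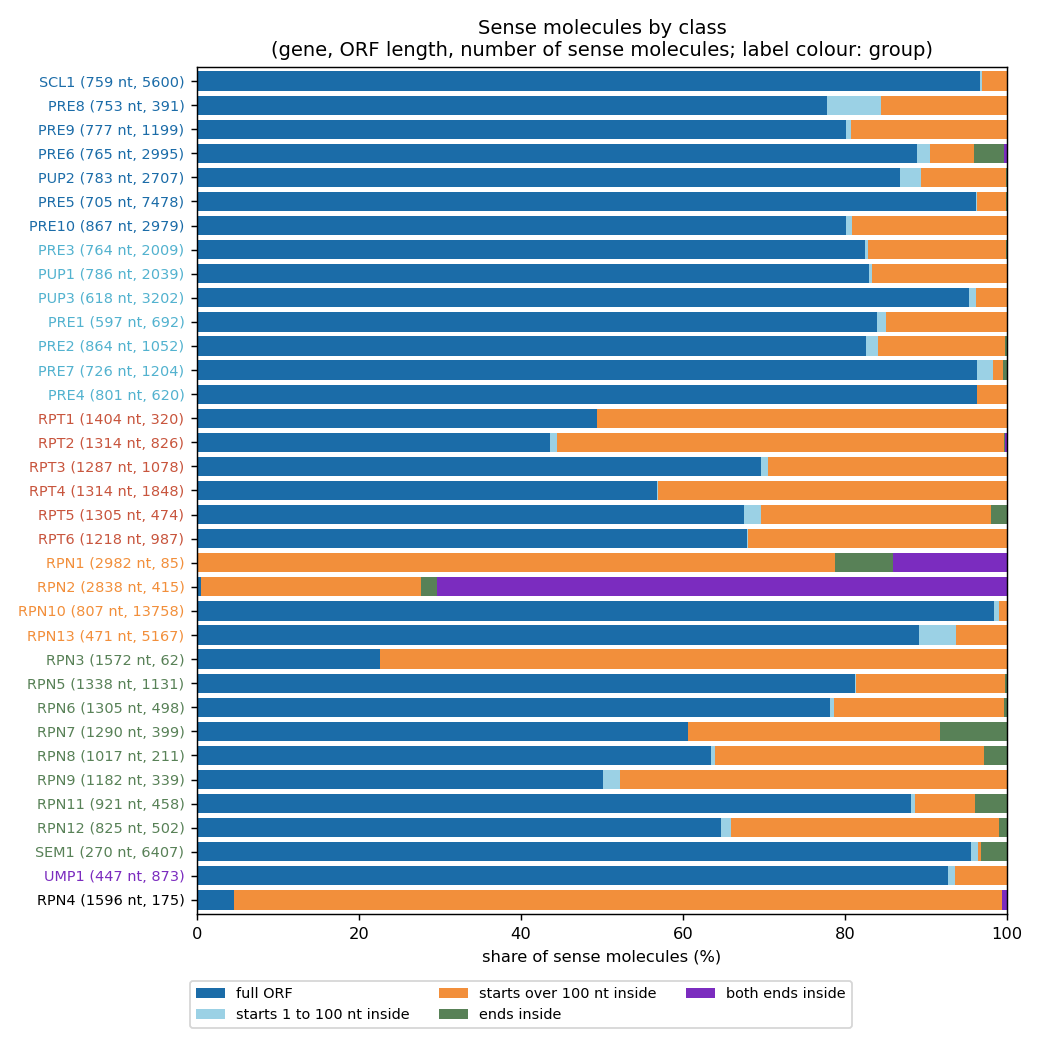
Share in percent of each gene's sense molecules by class, with ORF length and the number of sense molecules beside each name. Full-ORF molecules take 98.4% in RPN10 and 4.57% in RPN4, and molecules with both ends inside the ORF take most of RPN2.

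RPN2 (YIL075C, chromosome IX, 217863 to 220700, minus strand), the gene of a large scaffold subunit of the base, was read mostly as fragments of its ORF. Of its 415 sense molecules, 292 had both ends inside the ORF, 113 started inside and passed the stop codon, 8 ended inside and 2 covered the ORF. Of the 300 that ended inside, 226 (75.3%) ended at chrIX position 218201, 338 nt before the last base of the ORF. The 300 molecules came from 80 different start positions and had 6 end positions. The genome just past that end is rich in A, with 9 A in the next 10 bases, and 99.0% of the 300 ended before a stretch with at least 6 A in 10 bases. Full-ORF molecules of the 35 genes had such a stretch past 23.5% of their ends.

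The same measure was taken in the 3 other genes with at least 20 molecules ending inside, a number that 10.8% of all ORFs reached. SEM1 had 201, of which 189 ended 18 nt before the last base of the ORF. In PRE6 118 of 120 ended 24 nt before it. In RPN7 all 33 ended at 1 position, 981 nt before it. The A-rich share was 95.5% in SEM1, 100% in PRE6 and 100% in RPN7. The bases past the most used end are in capitals below. Whether cDNA synthesis had started on these stretches was not tested.
RPN2 (chrIX:218191-218210, minus strand): gagcatgaggAAAAAGAAAA
PRE6 (chrXV:256068-256087, plus strand): agagcaggacAAAAAGAAAA
SEM1 (chrIV:1202370-1202389, plus strand): ggatagatacAAACGGGAAA

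**Figure D5:**
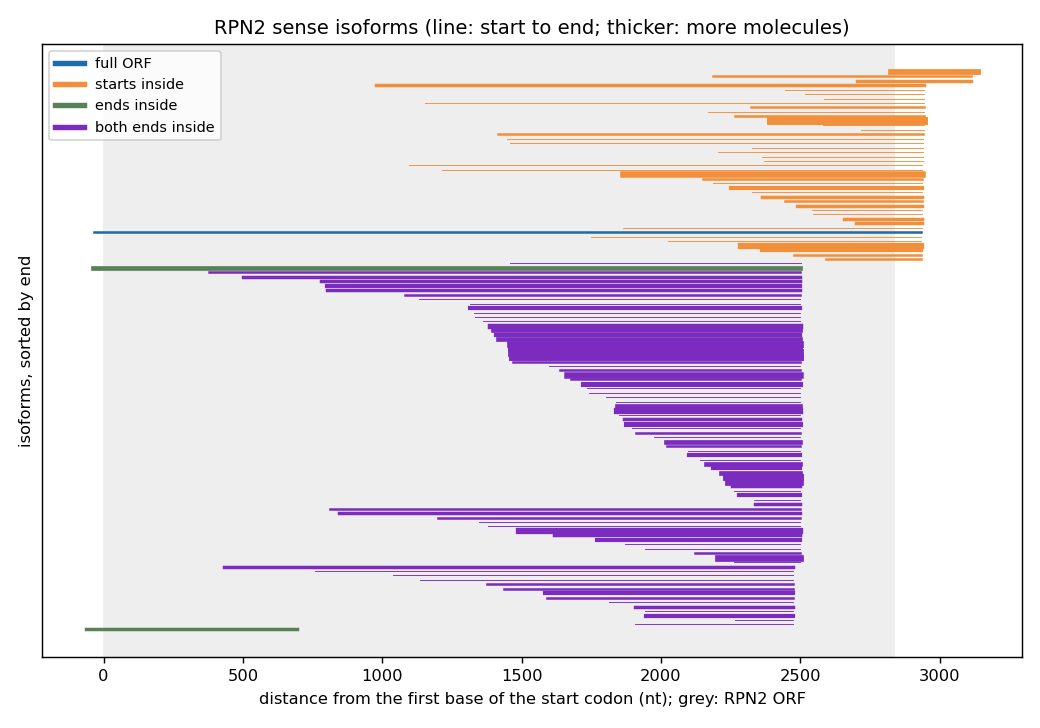
Sense isoforms of RPN2, drawn from start to end against the distance in nt from the start codon, sorted by end position, thicker where more molecules were counted. Most purple lines, with both ends inside the ORF (grey), stop at the same place, where 226 of the 300 molecules that ended inside were found.

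Antisense molecules were few. A molecule on the opposite strand that overlapped no ORF of its own strand was found over 12 of the 35 genes, against 62.3% of all ORFs. There were 54 such molecules, 0.0769% of sense plus antisense molecules (0.0589% to 0.100%), beside 1.03% over all ORFs. In core genes the share was 0.0760%, beside 0.431% over ORFs within their length range. PRE1 had the most with 12, RPN2 and SEM1 had 7 each, and PRE3 and RPT6 had 6 each. RPN4 had 2 and UMP1 had 4.

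Far more opposite-strand molecules came from neighbouring genes. Over 13 of the 35 genes, 2494 opposite-strand molecules also overlapped an ORF on their own strand, and 29.2% of all ORFs had such molecules. The downstream neighbour was convergent for 18 of the 35 genes. The share of all ORFs with a convergent neighbour was not computed, so this is not shown to be particular to these genes. Between RPN10 and PPX1, whose stop codons are 64 nt apart, 62.7% of the 13533 RPN10 full-ORF molecules reached PPX1, and 1038 of 1335 PPX1 sense molecules reached into RPN10. RPN9 and BNA7 are 67 nt apart. There, all 170 full-ORF molecules of RPN9 reached BNA7, and 700 of 806 BNA7 molecules reached RPN9. RPT4 and HNT3 are 70 nt apart, with 300 of 1050 RPT4 molecules and 212 of 253 HNT3 molecules overlapping the other ORF. The long 3′ UTR of RPN13 carried 2137 of its 4606 molecules (46.4%) into URA4, 210 nt away, and 0 URA4 molecules reached RPN13.

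Other genes of the ubiquitin pathway and of proteasome assembly were read from a list of 28. Of these, 16 had more full-ORF molecules than the median of ORFs of like length, a rule that 46.4% of all 6002 ORFs met. The middle gene of the 28 stood above 53.6% of ORFs of like length. The ubiquitin-conjugating enzyme gene UBC4 had 10541 full-ORF molecules, and DSK2, which encodes a shuttle for ubiquitinated proteins, had 988. The segregase gene CDC48, at 2508 nt, had 109 beside a like-length median of 1. The core chaperone genes IRC25, POC4, PBA1 and ADD66 had 170, 335, 107 and 199. The base chaperone genes NAS2, NAS6, HSM3 and RPN14 had 95, 513, 23 and 22.

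The motif, in the exact or either related form, was also found in 10 of these 28 promoters, against 2.5% of all ORFs. Only 4 had the exact form, against 1.22% of all ORFs, and the others had a form picked out from the 35 genes. UBI4 (polyubiquitin), UBA1 (the ubiquitin-activating enzyme), CDC48 and ECM29 had the exact form. NPL4, UBP6 and HUL5 had AGTGGCAAA, the form seen in PRE5, PUP1 and RPN8. RAD23, SHP1 and UFD1 had GGTGGCGAA, the form seen in RPN10, RPN13 and SEM1. None of the 8 assembly chaperones in the list had any of the 3 forms.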

How the data were processed

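Per the file headers, the authors deposited 1 whole-number count per start, end and strand. The single value column is named after the strain and pools the 2 replicates; 0 other sample columns were present. The submitters' processing notes name the R64 build, CASAVA and Novoalign 2.07.10. How replicates were combined, and any filter or removal of duplicates, is not given in the sources used here. Counts were used unscaled. Isoforms were placed against 6002 ORFs (start to stop codon, introns included) of the RefSeq R64 annotation, in classes set by a limit of 100 nt inside the ORF; molecules covering no ORF went to the ORF of greatest overlap. Sequences come from the RefSeq R64 genome. Intervals are 95% Wilson intervals, and those of medians over genes are order-statistic intervals. Distinct starts in 50 molecules came from the exact rarefaction formula. No test was run. The code was checked on simulated data. Python 3.11.15, pandas 2.3.3, numpy 2.4.6 and scipy 1.17.1 were used. Members, lists and tests were chosen with earlier results of these data known. Named genes were the highest and lowest of each role group for counts, leaders, 3′ UTRs, start focus, internal starts and antisense molecules, plus RPN4 and UMP1; others were named after their values were seen. Alternatives changed the minimum count, the weight of isoforms, windows and motif letters.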

Additional observations from a re-analysis of the deposited data

How the results depend on the processing

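In all, 29 alternatives were computed for 11 results, and 19 of them stayed within the interval of the value, or within 1.5 times a count. For the 3′ UTR the direction against all ORFs turned round: the median over genes was 96 nt, against 116 nt, and the median over pooled molecules 120 nt, against 107 nt; the cause was not tested. Both replicates share 1 column, so leaving out a replicate was not possible. No paired analysis was possible because the table has 1 pooled column and 1 group. Counting each isoform once moved the share of all molecules to 1.38%, full-ORF counts to 2301 isoforms in core and 2124 in regulatory genes, the start focus to 16.7%, the internal-start share to 31.9% and the antisense share to 0.298%; this gives weight to rare isoforms by construction. Keeping isoforms with at least 2 molecules moved the internal-start share to 8.94%, and counting starts from more than 0 nt inside moved it to 10.9%. Within 5 nt of the most used position, start focus was 51.1% and end focus 54.9%, since a wider window takes in more molecules. The motif count of 27 was 27 with 500 bases searched (99 of all ORFs), 30 with GGTGGC alone (387) and 33 with up to 1 mismatch (464). The count of 33 with either related form was added after seeing the data. In genes with few full-ORF molecules, such as RPN3 with 14 and RPN4 with 8, leaders and focus rest on those few, and depth limits what can be read.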

Other observations

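Upstream of PUP2, whose nearest ORF on that side is ENO1 at 1786 nt, 401 molecules that overlapped no ORF on either strand ended within 500 nt of the PUP2 start codon on its strand. Their median length was 328 nt, and the most counted isoform, with 24 molecules, ran from position 999951 to 999582 of chromosome VII, on the minus strand. Such molecules were otherwise found in front of RPN4 (15), RPN12 (5) and PRE1 (3), where the nearest upstream ORF lay 954, 701 and 1822 nt away. In front of the other 31 genes 0 were found, but most of these have a shorter gap, which leaves little room for molecules that overlap no ORF. SEM1 and PRE10, with gaps of 1574 and 1475 nt, also had 0. The share of all ORFs with such molecules was not computed, so they are not shown to be particular to these genes.

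The exact PACE letters were also found before 46 ORFs outside the 35 genes. Of these, 8 read the same copy of the motif as a proteasome gene: ALG13, GCD1, MPO1, NOP14, PMT1, YOL038C-A, YPI1 and YTH1.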
